A study of Rattus norvegicus with 23 samples.

Results

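The genes described here make, package, take up and break down the catecholamines and serotonin in the rat area postrema. They are Th, Dbh, Ddc, Gch1, Slc18a2, Slc6a2, Slc6a4, Tph2, Maoa and Maob. Members were all probe sets (groups of short probes that report 1 transcript) to which the platform annotation attaches exactly 1 gene symbol that is on this list. That rule gave 13 probe sets for 9 of the 10 genes, out of 31099 on the array, of which 20832 carry a single symbol, for 14218 genes in all. Tph2 had 0 such probe sets, so its RNA is not analysed here and only its promoter window is counted.

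The area postrema is a small sensory organ at the floor of the fourth ventricle that lacks a tight blood-brain barrier and reads hormones, toxins and ions in the blood. RNA was measured on 23 Affymetrix Rat 230 2.0 arrays, each from a pool of 5 male animals, so that differences between the animals of a pool cannot be seen. The spontaneously hypertensive rat (SHR), an inbred strain with genetic high blood pressure, had 5 arrays, and the normotensive Wistar Kyoto strain (WKY), against which it is usually set, had 5 arrays. Animals of both strains were 10 to 13 weeks old and untreated as far as the labels say. Outbred Sprague Dawley rats aged 10 to 12 weeks were dehydrated for 72 h (4 arrays), fasted for 48 h (5 arrays) or kept as controls (4 arrays). By the title of the series, the question is how the transcriptome of this organ differs in hypertensive, thirsty and hungry rats.

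Catecholamines are made from tyrosine. Tyrosine hydroxylase (Th) makes L-DOPA with the help of the cofactor tetrahydrobiopterin, whose synthesis starts with GTP cyclohydrolase 1 (Gch1), aromatic amino acid decarboxylase (Ddc) turns L-DOPA into dopamine, and dopamine beta-hydroxylase (Dbh) turns dopamine into noradrenaline. The vesicular transporter Slc18a2 (VMAT2) loads amines into vesicles, Slc6a2 and Slc6a4 take noradrenaline and serotonin back up from outside the cell, and the mitochondrial oxidases Maoa and Maob break amines down. Noradrenergic neurons are a known component of the area postrema, and neurons that make serotonin use the same decarboxylase, cofactor and vesicular transporter with tryptophan hydroxylase 2 (Tph2) as their own first enzyme.

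Promoter windows of the members were taken from RefSeq, assembly GRCr8, as the 250 bases before and 50 bases after each annotated gene start. There were 10 windows for 8 of the 10 genes, 3 of them for Ddc. The windows below are shown for Gch1, the member that differed between strains, and for the catecholamine genes Th, Dbh and Slc18a2, so that their cAMP response elements can be compared. Capitals mark the core TGACG, or its reverse complement CGTCA, and the full palindrome TGACGTCA, which holds overlapping cores on both strands.
Gch1 (chr15:22917363-22917662, minus strand): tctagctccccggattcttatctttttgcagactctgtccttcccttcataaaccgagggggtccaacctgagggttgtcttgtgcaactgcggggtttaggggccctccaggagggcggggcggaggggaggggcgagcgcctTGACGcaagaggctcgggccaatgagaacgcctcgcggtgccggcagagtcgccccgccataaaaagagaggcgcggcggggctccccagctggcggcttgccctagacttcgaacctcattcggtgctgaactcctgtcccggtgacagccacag
Th (chr1:207508169-207508468, minus strand): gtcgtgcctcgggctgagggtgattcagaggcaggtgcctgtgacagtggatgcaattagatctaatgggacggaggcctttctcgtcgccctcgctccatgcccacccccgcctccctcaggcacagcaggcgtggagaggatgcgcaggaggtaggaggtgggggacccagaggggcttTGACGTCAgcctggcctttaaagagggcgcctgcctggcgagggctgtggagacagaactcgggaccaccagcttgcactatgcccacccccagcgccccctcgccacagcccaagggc
Dbh (chr3:30886078-30886377, plus strand): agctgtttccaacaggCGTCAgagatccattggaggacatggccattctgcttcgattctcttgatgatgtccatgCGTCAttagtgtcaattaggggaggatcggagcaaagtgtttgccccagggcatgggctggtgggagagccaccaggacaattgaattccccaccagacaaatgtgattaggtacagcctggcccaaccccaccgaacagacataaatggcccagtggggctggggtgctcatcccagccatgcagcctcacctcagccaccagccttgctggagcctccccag
Slc18a2 (chr1:268399771-268400070, plus strand): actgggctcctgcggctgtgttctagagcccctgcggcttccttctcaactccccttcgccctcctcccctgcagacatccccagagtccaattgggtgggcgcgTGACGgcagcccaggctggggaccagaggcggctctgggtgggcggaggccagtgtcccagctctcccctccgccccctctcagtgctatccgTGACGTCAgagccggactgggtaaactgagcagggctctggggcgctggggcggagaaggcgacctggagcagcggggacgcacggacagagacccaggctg
A core on either strand was found in 6 of the 10 member windows, against 21.2% of all 33469 RefSeq windows of this length. That count includes 2 windows that are not shown. Tph2 has a core at -219, and Maoa has its only core at 1, after the annotated gene start and not before it. The 3 windows of Ddc held none. The full palindrome stood in 2 of the 10, those of Th and Slc18a2, against 1.83% of all windows. In the Th window its first base lies at position -69 from the gene start, and in the Slc18a2 window at -52. Gch1 has a single core, outside any palindrome, at -106, and Dbh has a pair on the opposite strand at -234 and -174. A match in these letters is a description of the window and not a measured binding site.

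The deposited values are signals in arbitrary units, and every array was found to have the same trimmed mean of 100.03. A difference is given as the difference of mean log2(signal + 16), which understates the ratio of dim probe sets. It was tested with limma over all 18625 probe sets whose mean signal reached a filter at the 40th percentile, which corresponds to a signal of 29.0 in the SHR and WKY arrays and 27.4 in the Sprague Dawley arrays. A probe set was called at an adjusted p (Benjamini-Hochberg) under 0.05. Of the 13 member probe sets, 10 passed the filter in each fit and cover 7 genes. The other 3, for Slc6a2, Slc6a4 and 1 of the 3 probe sets of Slc18a2, lay below it. Serotonin synthesis is therefore represented here only through Ddc and Gch1, which it shares with catecholamine synthesis.

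Markers of other tissues and cell types differed between some arrays or groups. The summed signal of 7 choroid plexus markers was 5060.3, 6991.9 and 12161.5 in dehydrated arrays 1 to 3, 11083.4 in fasted array 4 and 10006.6 in control array 3, against 1425.0 to 2407.5 in the other Sprague Dawley arrays. In SHR it was 1234.9 to 1369.9, against 788.3 to 959.8 in WKY, mostly through Enpp2, the enzyme autotaxin, which was called. Enpp2 had 1112.9 ± 63.2 in SHR and 660.4 ± 27.1 in WKY (SD, n = 5 each). Of the 4 choroid plexus markers tested in SHR minus WKY, 1 was positive, Enpp2, and 3 were negative (median log2 difference -0.14). Ttr, transthyretin, the defining choroid plexus transcript, was 44.2 to 144.3 in SHR and 73.5 to 189.1 in WKY. All 7 fibroblast and meningeal markers were negative in SHR minus WKY and 3 of them were called, with sums of 2203.8 to 2936.7 in SHR and 3177.2 to 3921.5 in WKY. Of 10 tested microglia and macrophage markers 3 were called lower in SHR, with sums over all 11 measured of 1573.0 to 2127.3 in SHR and 2184.2 to 2460.5 in WKY. Summed markers of all neurons were 6371.2 to 7157.0 in SHR and 6706.8 to 7167.2 in WKY. Among markers of neuron types 2 were called, both higher in SHR. They were Prph, the neurofilament protein peripherin, and Gad2, a GABA-making enzyme. Prph, 1 of 2 tested markers of motor and cholinergic neurons, had 72.6 ± 10.2 in SHR and 37.4 ± 2.8 in WKY. Gad2, 1 of 3 tested markers of GABA and glycine neurons, had 37.7 ± 7.2 in SHR and 23.1 ± 6.3 in WKY. Of these 3 markers 1 was positive and 2 were negative, with a median log2 difference of -0.02. The summed GABA and glycine markers overlapped, at 1733.6 to 2077.0 in SHR and 1749.8 to 2062.0 in WKY. In dehydrated minus control 0 cell type markers were called, but some sums moved. No test was run on the sums. Markers of all neurons summed to 7402.4 to 8089.0 in dehydrated and 7023.7 to 7224.6 in control arrays, without overlap. Those of glutamate neurons summed to 709.6 to 886.4 in dehydrated and 562.9 to 699.7 in control arrays, also without overlap. Of the 2 glutamate markers 1 was tested, with a log2 difference of 0.32. Markers of motor and cholinergic neurons summed to 374.4 to 632.5 in dehydrated and 314.9 to 424.6 in control arrays, with all 4 tested positive. Fibroblast and meningeal markers summed to 3274.1 to 4329.2 in dehydrated and 3897.9 to 4975.6 in control arrays, with 6 of 7 negative and a median log2 difference of -0.33. Beyond the fits named below, the part of all these markers in the members' values was not tested. In whole tissue, fewer cells of a type and less RNA per cell cannot be told apart.

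**Figure D1:**
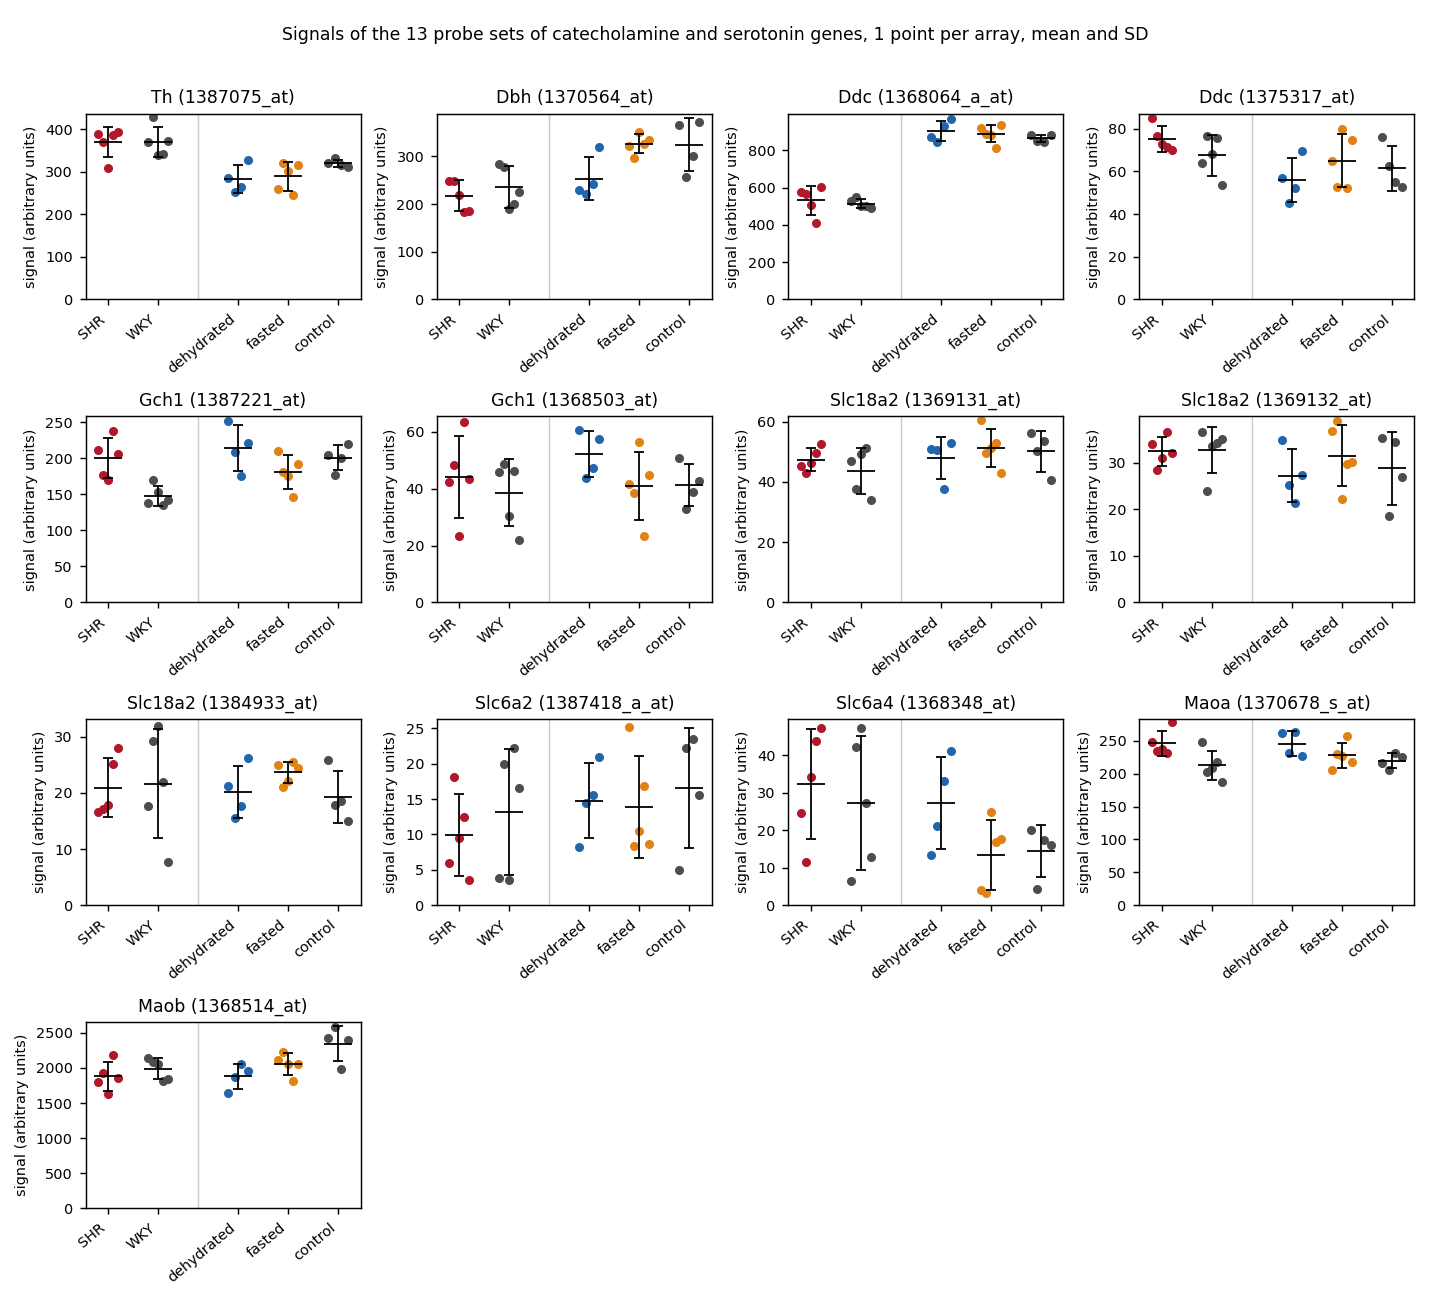
Signals in arbitrary units (vertical axes, from 0) of the 13 member probe sets on each of the 23 arrays, by group, with 1 point per array and the group mean and SD as bars. The grey line separates the SHR and WKY arrays from the Sprague Dawley arrays. Gch1 (1387221_at) runs from 169.8 to 238.6 in SHR and from 135.0 to 169.3 in WKY, without overlap.

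In SHR against WKY, Gch1 was the member that differed. Its probe set 1387221_at had signals of 211.8, 177.1, 169.8, 238.6 and 206.3 in SHR, against 137.3, 169.3, 152.8, 135.0 and 142.7 in WKY. The lowest SHR array and the highest WKY array lay close together, at 169.8 and 169.3, and the groups did not overlap. The means were 200.7 ± 27.9 in SHR and 147.4 ± 14.0 in WKY (SD, n = 5 each), a log2 difference of 0.40 with SE 0.0897 (95% interval 0.21 to 0.59, limma adjusted p = 0.0113). This was the only call among the 10 tested member probe sets, where 5.06% of all 18625 probe sets were called and 2.17% were called higher in SHR. The strains were free of overlap at 1 of the 10, against 6.33% of all probe sets in either direction and 3.08% with SHR higher. A count of 1 in 10 is near both backgrounds and is read as a value of Gch1, not of the members as a set.

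The second probe set of Gch1, 1368503_at, was dim and was not called. It had 42.4, 48.2, 23.4, 63.4 and 43.3 in SHR, against 45.9, 48.8, 30.3, 46.1 and 22.0 in WKY. The groups overlapped over most of their range. Its log2 difference was 0.13 (SE 0.178, 95% interval -0.25 to 0.51, adjusted p = 0.773), an interval that holds both 0 and the value of the brighter probe set. When both probe sets were averaged on the log2 scale, Gch1 was not called (log2 0.27, adjusted p = 0.244), nor when their linear signals were averaged (0.34, adjusted p = 0.0542, added after the data were seen). The call stood in each of the 10 fits that left out 1 array (log2 0.34 to 0.45, adjusted p 0.00647 to 0.0343). It also stood with the Ttr signal as a covariate (log2 0.43, adjusted p = 0.0172). With the choroid plexus marker sum as a covariate the log2 difference was 0.65 and was not called (adjusted p = 0.594). That sum does not overlap between the strains, so the strain and the covariate can hardly be told apart in that fit.

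Tetrahydrobiopterin genes were read as a list of 8, of which 5 were tested. Gch1 and Pts were called higher in SHR and 0 were called lower, where 2.17% of all probe sets were called higher. Gch1 is the member call given above, counted again in this list. Outside the members, 1 of 31 tested pathway genes was called, Pts. The list was chosen with earlier results of these data known, and 2 of 5 is not read as a result about the pathway. Pts, 6-pyruvoyltetrahydropterin synthase, the enzyme after Gch1, had 167.0, 135.0, 146.1, 144.2 and 132.6 in SHR, against 118.4, 121.8, 119.6, 113.0 and 117.0 in WKY. All SHR arrays lay above all WKY arrays, as they did at 3.08% of all probe sets tested. Its log2 difference was 0.26 (SE 0.0731, adjusted p = 0.0469), close to the threshold, and it was called in 9 of 23 alternatives (adjusted p 0.0249 to 0.888), among them 2 of the 10 that left out 1 array, without SHR replicate 2 or without SHR replicate 5. The other 3 were not called. Qdpr, which recycles the cofactor, had 825.2 ± 77.1 in SHR and 892.6 ± 36.0 in WKY (log2 -0.12, adjusted p = 0.385). Pcbd2, of the carbinolamine dehydratase family, had 757.1 ± 21.3 in SHR and 721.7 ± 25.3 in WKY (0.07, 0.546), and Gchfr, the feedback regulator protein of Gch1, 40.8 ± 9.5 in SHR and 42.3 ± 4.0 in WKY (-0.05, 0.875). The median log2 difference of the 5 was 0.07, against 0.01 over all probe sets tested. In the Sprague Dawley comparisons 0 of the 5 were called.

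**Figure D2:**
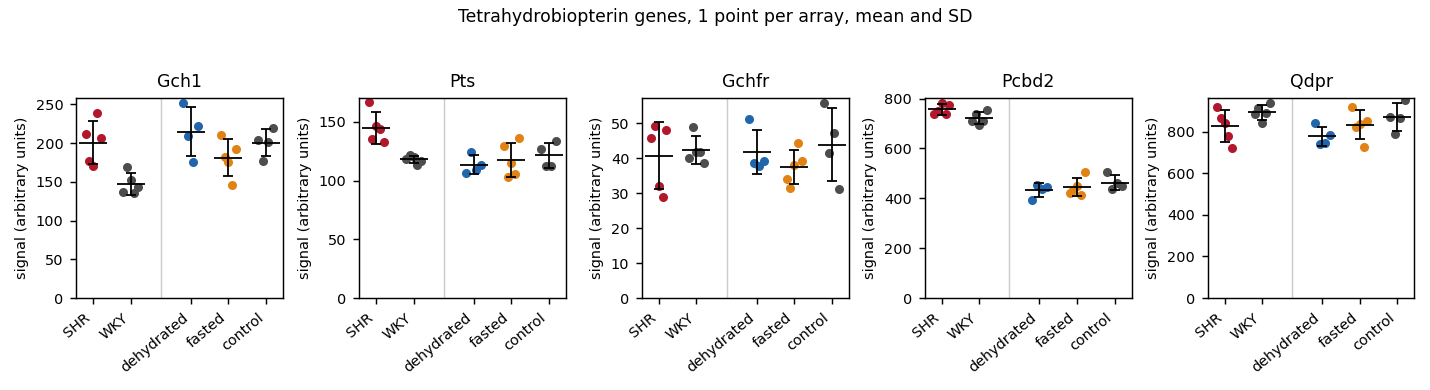
Signals in arbitrary units (vertical axes, from 0) of the 5 tested tetrahydrobiopterin genes on the 23 arrays, by group, with the mean and SD. Every SHR array lies above every WKY array for Gch1 (169.8 and above, against 169.3 and below) and for Pts (132.6 and above, against 121.8 and below). For Gchfr, Pcbd2 and Qdpr the strains overlap.

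The synthetic enzymes downstream of the cofactor were close between the strains. Th had 388.7, 370.7, 308.7, 386.5 and 393.0 in SHR, against 370.7, 428.2, 340.9, 343.1 and 373.0 in WKY. The groups overlapped, with 1 low array in SHR, and the log2 difference was -0.01 (SE 0.077, 95% interval -0.17 to 0.16, adjusted p = 0.98). Ddc, at its brighter probe set 1368064_a_at, had 578.2, 568.0, 507.0, 408.6 and 601.2 in SHR, against 531.1, 549.1, 503.6, 499.8 and 490.8 in WKY. SHR spread wider and held both the highest and the lowest array. The log2 difference was 0.04 (95% interval -0.14 to 0.22, adjusted p = 0.887), and that of the second probe set, 1375317_at, was 0.13 (-0.07 to 0.33, adjusted p = 0.531). Dbh had 248.7, 249.1, 218.5, 183.4 and 184.8 in SHR, against 283.5, 277.9, 189.3, 199.1 and 225.9 in WKY. Its log2 difference was -0.10 (SE 0.116, 95% interval -0.35 to 0.14, adjusted p = 0.724).

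Of the oxidases, Maoa, which prefers serotonin and noradrenaline as substrates, had 248.7, 235.2, 238.3, 231.2 and 278.2 in SHR, against 247.6, 202.5, 208.7, 217.5 and 187.8 in WKY. Only WKY array 1 reached into the SHR range. The log2 difference was 0.20 (SE 0.076, 95% interval 0.04 to 0.36) and did not pass (adjusted p = 0.17). It came closest to the threshold without WKY replicate 1 (log2 0.25, adjusted p = 0.0709). Maob, an outer mitochondrial membrane oxidase found largely in glia and serotonin neurons, had 1796.3, 1924.2, 1633.3, 2183.5 and 1857.4 in SHR, against 2148.1, 2092.1, 2052.0, 1820.2 and 1849.2 in WKY. The groups overlapped (log2 -0.09, 95% interval -0.24 to 0.06, adjusted p = 0.593). Maoa and Gch1 were the 2 of 10 member probe sets with an unadjusted p under 0.05, a share to be read against 17.2% of all probe sets.

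Slc18a2 was dim at all its probe sets. At 1369131_at it had 45.4, 42.9, 46.4, 49.5 and 52.6 in SHR, against 46.8, 37.5, 49.1, 51.2 and 33.9 in WKY (log2 0.09, adjusted p = 0.715). At 1369132_at SHR ran from 28.4 to 36.6 and WKY from 24.0 to 36.5, with adjusted p = 0.993. The plasma membrane transporters lay near the bottom of the scale. Slc6a2 ran from 3.5 to 18.2 in SHR and from 3.5 to 22.2 in WKY, and Slc6a4 from 11.4 to 47.4 in SHR and from 6.5 to 47.4 in WKY. In a fit without the filter their log2 differences were -0.14 (SE 0.215, adjusted p = 0.863) and 0.21 (SE 0.288, adjusted p = 0.846). Signals of this size spread over a range of several fold within each group, and a difference between the strains was not detectable at them.

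After dehydration no member passed the threshold, and Maob and Dbh had the smallest p. Against control, 0 of the 10 tested member probe sets were called, where 0.166% of all probe sets were, and 2 had an unadjusted p under 0.05, where 11.7% of all did. Maob had 1638.0, 1876.9, 2058.9 and 1952.3 in dehydrated arrays, against 2421.7, 2584.3, 1984.7 and 2404.2 in controls. Control array 3 alone reached into the dehydrated range, and it is also the control array with the high choroid plexus sum. The means were 1881.5 ± 178.7 in dehydrated and 2348.7 ± 255.9 in control rats (SD, n = 4 each), with log2 -0.32, SE 0.0867 and a 95% interval of -0.50 to -0.14 (limma adjusted p = 0.155). Over 27 alternatives the adjusted p ran from 0.0614, without control replicate 3, to 0.473, with only control arrays 3 and 4. With the choroid plexus marker sum as a covariate the log2 difference was -0.27 (adjusted p = 0.294). The neuron sum was higher in dehydrated rats and the median of the fibroblast and meningeal markers lower by a like amount (-0.33), and no fit with either as a covariate was run.

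Dbh had 229.0, 221.5, 241.3 and 320.2 in dehydrated arrays, against 366.6, 256.5, 301.0 and 372.8 in controls. Dehydrated arrays 1 to 3 lay below every control array, and dehydrated array 4 lay among the controls. The means were 253.0 ± 45.5 in dehydrated and 324.2 ± 55.6 in control rats, with log2 -0.34, SE 0.114 and a 95% interval of -0.58 to -0.10 (limma adjusted p = 0.248). Against fasted rats, which had 321.5, 297.0, 351.6, 326.0 and 334.0, the log2 difference was -0.36 (SE 0.108, adjusted p = 0.272). Arrays with high choroid plexus sums were these 3 low arrays, fasted array 4 (Dbh 326.0) and control array 3 (Dbh 301.0). The 3 low dehydrated arrays include the array with the highest log2 ratio of 3' to 5' Gapdh control signals, a measure of RNA integrity. That ratio was 0.21 to 0.68 in dehydrated, 0.18 to 0.26 in fasted and 0.21 to 0.57 in control arrays. With that ratio as a covariate the difference from fasted rats was -0.15 (adjusted p = 0.933) and that from controls -0.26 (0.273). With the choroid plexus sum as a covariate both were -0.28 (0.611 against fasted, 0.418 against control). Without dehydrated replicate 4 the differences were -0.47 against fasted (0.0931) and -0.45 against control (0.0861).

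Th had 285.5, 251.7, 265.4 and 328.5 in dehydrated arrays, against 320.5, 331.9, 316.3 and 311.2 in controls. The controls lay close together and dehydrated array 4 stood within them (log2 -0.18, SE 0.0935, 95% interval -0.37 to 0.02, adjusted p = 0.481). Dehydrated arrays 1 to 3, each below every control array, were those with high choroid plexus sums. Control array 3, which also had a high sum, lay among the controls (Th 316.3). Ddc at 1368064_a_at ran from 847.4 to 970.0 in dehydrated and from 847.0 to 881.9 in control arrays (log2 0.06, 95% interval -0.08 to 0.20, adjusted p = 0.772). Gch1 at 1387221_at had 252.3, 209.4, 175.3 and 221.5 in dehydrated arrays, against 204.5, 177.4, 201.1 and 219.3 in controls. The log2 difference was 0.08 (SE 0.109, 95% interval -0.14 to 0.31, adjusted p = 0.808), and that of 1368503_at 0.25 (-0.08 to 0.58, 0.548). Maoa had 261.4, 231.0, 263.4 and 227.0 in dehydrated arrays, against 216.1, 205.5, 231.7 and 224.8 in controls (0.15, 95% interval -0.02 to 0.32, adjusted p = 0.496). Slc18a2 differed by -0.05 and -0.04 at its 2 tested probe sets (adjusted p = 0.915 and 0.947).

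After fasting for 48 h no member passed the threshold. Of the 10 tested probe sets 0 were called, where 0.0215% of all probe sets were, and 1 had an unadjusted p under 0.05, where 7.19% of all did. That one was Maob, with 2119.4, 2229.6, 2058.5, 1811.3 and 2055.1 in fasted arrays, against 2421.7, 2584.3, 1984.7 and 2404.2 in controls. Of the controls only array 3 lay within the fasted range. The log2 difference was -0.19 (SE 0.0822, adjusted p = 0.664). Th had 259.8, 321.5, 302.7, 246.1 and 317.2 in fasted arrays, against 311.2 to 331.9 in controls (log2 -0.14, 95% interval -0.33 to 0.04, adjusted p = 0.751). Fasted array 4, the lowest at 246.1, is the fasted array with the high choroid plexus sum. With that sum as a covariate the log2 difference of Th was -0.17 (limma adjusted p = 0.626). Dbh had 297.0 to 351.6 in fasted and 256.5 to 372.8 in control arrays (0.02, -0.20 to 0.25, 0.986), and Gch1 at 1387221_at had 210.9, 181.5, 175.3, 146.3 and 192.0 in fasted arrays (-0.14, -0.36 to 0.08, 0.807). The other differences from control lay between -0.03 and 0.09.

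Dehydrated against fasted rats gave 0 calls among the 10, where 0.0322% of all probe sets were called, and 2 unadjusted p under 0.05, where 10.0% of all had one. Those were Dbh, given above, and Gch1 at 1387221_at, at 214.6 ± 31.8 in dehydrated (n = 4) and 181.2 ± 23.7 in fasted rats (n = 5). The log2 difference of Gch1 was 0.22 (SE 0.104, 95% interval 0.01 to 0.44, adjusted p = 0.475). Its other probe set differed by 0.28 (-0.03 to 0.59, adjusted p = 0.56). Slc6a4, below the filter, had 13.4, 21.2, 33.2 and 41.1 in dehydrated arrays, against 4.1, 3.3, 25.0, 16.9 and 17.8 in fasted and 4.4 to 20.0 in control arrays. The dehydrated arrays overlapped both other groups. In the fit without the filter its log2 difference from fasted rats was 0.57 (SE 0.248, adjusted p = 0.566). The 2 comparisons with dehydrated rats share those 4 arrays, and the 2 with control rats share the controls, so their values are not independent.

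**Figure D3:**
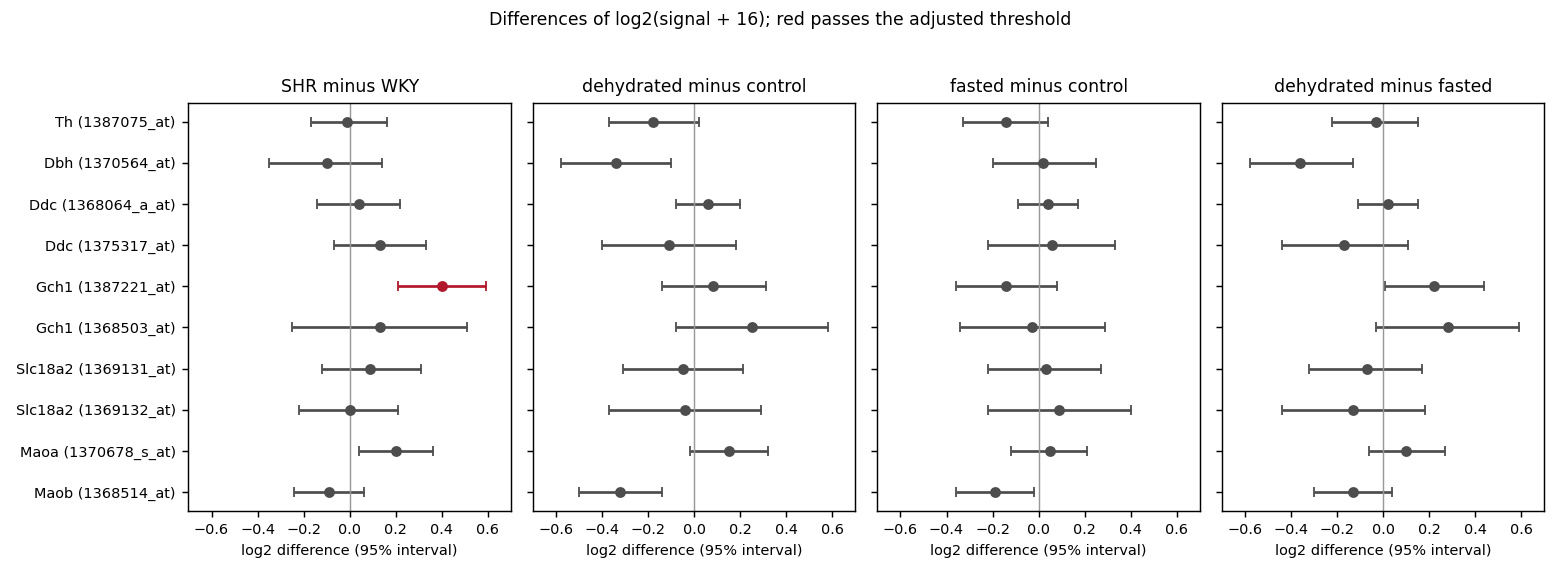
Log2 differences with 95% intervals (horizontal axes) of the 10 tested member probe sets in the 4 comparisons, each named as the first group minus the second. Gch1 (1387221_at) in SHR minus WKY, 0.40, is the single point past the adjusted threshold. The intervals of Dbh and Maob in dehydrated minus control lie below 0 but did not pass after adjustment. The same holds for Dbh in dehydrated minus fasted and Maob in fasted minus control. Those of Maoa in SHR minus WKY and Gch1 (1387221_at) in dehydrated minus fasted lie above 0 and did not pass either.

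Of the pathway genes around the members, 31 outside the member list were tested in each comparison. In SHR minus WKY 1 was called higher, Pts, and 0 lower, a share near the 2.17% of all probe sets called higher and the 5.06% called in either direction. In the 3 Sprague Dawley comparisons 0 were called in either direction, where 0.166% (dehydrated minus control), 0.0322% (dehydrated minus fasted) and 0.0215% (fasted minus control) of all probe sets were. The median log2 difference of the 31 was 0.00 in SHR minus WKY, -0.08 in dehydrated minus control, -0.06 in fasted minus control and -0.03 in dehydrated minus fasted, against 0.01, -0.01, 0.00 and -0.01 over all probe sets tested. The lists of amine breakdown and non-neuronal uptake (7 tested), of vesicle, ascorbate and copper supply (6) and of serotonin receptors (4) had 0 genes called in any comparison. Slc7a8, an amino acid transporter, had 218.6 ± 36.2 in SHR and 296.2 ± 53.2 in WKY (log2 -0.41, adjusted p = 0.0707), and Aldh1a1, an aldehyde dehydrogenase, 68.2 ± 12.6 in SHR and 49.9 ± 4.1 in WKY (0.34, adjusted p = 0.0704). The dopamine D2 receptor Drd2 had 135.6 ± 14.4 in SHR and 135.2 ± 14.6 in WKY, and 137.1 ± 19.3 in dehydrated and 156.0 ± 16.3 in control rats. Phox2a, a transcription factor of noradrenergic neurons, had 29.7 ± 3.7 in SHR and 29.4 ± 5.1 in WKY, near the filter. Pnmt, which makes adrenaline, lay below the filter, and Tph1 is not analysed here. These genes outside the members that did not pass were chosen after their values were seen.

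The members were also compared as they vary among arrays of the same group. Each gene was read by its brightest probe set, the group mean was removed, and the 21 pairs of the 7 genes kept in both fits were correlated over the 23 arrays. No pair passed after adjustment over the 21. Over the 23 arrays the unadjusted p was under 0.05 for Dbh and Ddc by both measures and for Th and Ddc by Spearman's rho alone. Dbh and Ddc had the highest r (Pearson r = 0.47, permutation p = 0.0214, adjusted p = 0.45; Spearman rho = 0.52, permutation p = 0.0182, adjusted p = 0.29). Without the 2 arrays farthest from the median of Dbh, its r was 0.43. Within the SHR and WKY arrays r was 0.46 (permutation p = 0.142) and within the Sprague Dawley arrays 0.55 (0.0312). Th and Ddc had r = 0.34 (permutation p = 0.173, adjusted p = 0.742; rho = 0.52, permutation p = 0.0276, adjusted p = 0.29), and r was 0.25 without the 2 arrays farthest from the median of Th. Th and Gch1 had r = 0.46 (permutation p = 0.0649, adjusted p = 0.454; rho = 0.43, permutation p = 0.0765, adjusted p = 0.535). Their r was 0.72 in the SHR and WKY arrays (permutation p = 0.0241, not adjusted) and 0.28 in the Sprague Dawley arrays (0.445). It was 0.24 without the 2 arrays farthest from the median of Th, SHR 3 and fasted 4. The value over all arrays thus rests on those 2. Th and Dbh, on either side of Ddc in the pathway, had r = 0.30 (permutation p = 0.177, adjusted p = 0.742; rho = 0.22, permutation p = 0.315, adjusted p = 0.67). Over all pairs r ran from -0.28 to 0.47 with a median of 0.05, and 12 of 21 were above 0.

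**Figure D4:**
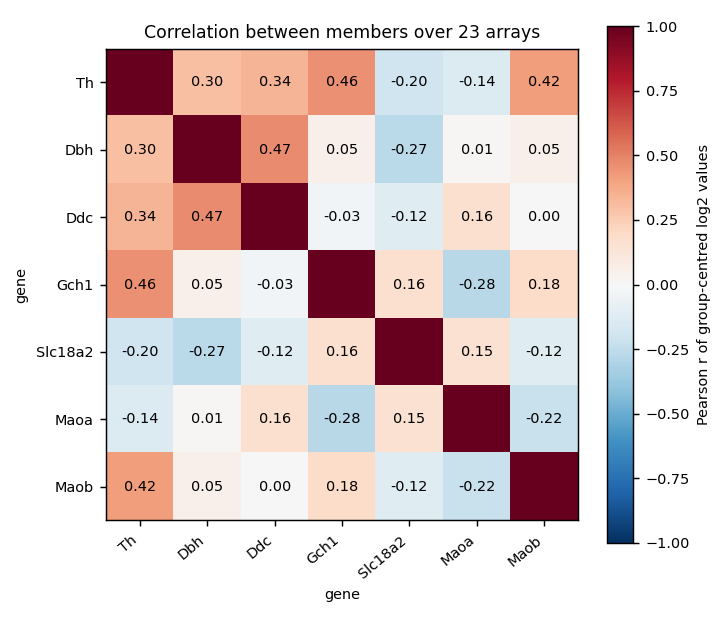
Pearson correlations of group-centred log2 values between the 7 members kept in both fits, over 23 arrays, with r printed and shaded from -1 to 1. The highest is Dbh with Ddc at 0.47 and the lowest Gch1 with Maoa at -0.28.

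Genes whose values followed each member most closely over the 23 arrays, after removal of group means, were found among 10203 other genes and are given as a description. For Maob they were Msx1, a homeobox gene (r = 0.88), Aldh1a2, a retinaldehyde dehydrogenase (0.86), and Dbi, which encodes acyl-CoA binding protein (0.86). For Dbh they were Gabbr1, a subunit of the GABA-B receptor (0.84), Msl1 (0.83) and Msn, the membrane linker moesin (0.81). For Gch1 they were Entr1 (0.81), the kinesin Kif22 (0.75) and Lpcat4 (0.74). The corresponding genes were Selenon (0.76), Abhd1 and Mmp17 for Th, Commd4 (0.78), Cnpy2 and Nol3 for Ddc, Gpatch1 (0.80), Gosr1 and Tirap for Slc18a2, and Ms4a6bl1 (0.75), Lrp8 and Fzd6 for Maoa. No member was among the closest 3 of another member. Each value is over the same 23 arrays, and the highest of 10203 values is high by its selection.

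No group spans the SHR and WKY arrays and the Sprague Dawley arrays, so strain and any batch cannot be told apart between them, and their levels are set side by side only as a description. Ddc at 1368064_a_at ran from 408.6 to 601.2 in the 10 SHR and WKY arrays and from 815.3 to 970.0 in the 13 Sprague Dawley arrays. It was the 1 of the 10 tested member probe sets without overlap in either direction, where 3.48% of all probe sets had none. At the second Ddc probe set the ranges overlapped, 53.4 to 85.1 in SHR and WKY and 45.0 to 79.8 in Sprague Dawley arrays, and its log2 difference of 0.19 pointed the other way from the -0.75 of the first. Dbh ran from 183.4 to 283.5 in SHR and WKY and from 221.5 to 372.8 in Sprague Dawley arrays (log2 -0.40), and Th from 308.7 to 428.2 in SHR and WKY and from 246.1 to 331.9 in Sprague Dawley arrays (0.31). Gch1 at 1387221_at was 146.3 to 252.3 in Sprague Dawley arrays, a range that holds every SHR array, while 3 of the 5 WKY arrays lay below 146.3. In group means of Gch1 the order was dehydrated 214.6 ± 31.8, SHR 200.7 ± 27.9, control 200.6 ± 17.3, fasted 181.2 ± 23.7 and WKY 147.4 ± 14.0, and neighbours among the first 4 differed by less than the larger of their SDs.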

How the data were processed

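The deposited values are linear intensity signals. Per the submitters' processing notes, the authors used GCOS 1.2, the Affymetrix array software, whose settings are not known here. The mean left after removing 2% of values at each end was 100.03 on every array, so no further normalization was applied. Array medians were 39.81 to 44.48, and the number of arrays limits the precision. Gene symbols came from the platform annotation, promoter windows from RefSeq GRCr8.

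Signals were analysed as log2(signal + 16) with limma 3.58.1 in R 4.3.3 (lmFit, eBayes with trend and robust, two-sided), on the 10 SHR and WKY arrays and, in 1 model with 3 contrasts, on the 13 Sprague Dawley arrays. The 57 control probe sets and probe sets below the 40th percentile of mean log2 signal were left out, and Benjamini-Hochberg adjustment ran over the 18625 kept, with a threshold of 0.05. The pipeline was tested on simulated data. Because arrays are pools of 5 animals, p-values measure the spread between pools.

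Correlations used 100000 permutations of arrays within groups. Python 3.11.15, numpy 2.4.6, pandas 2.3.3 and scipy 1.17.1 were used. The members, the 10 pathway lists and the 14 cell type lists were chosen with earlier results of these data known. Lists read each gene by its brightest probe set and are described by counts, with no set test. By rule, every member, list genes past the threshold (up to 3 of a list in a comparison) and the 3 genes most like each member were to be named. Exceptions are the 3 fibroblast and meningeal and the 3 microglia and macrophage markers called lower in SHR, given only as counts. The other genes named, among them the tetrahydrobiopterin genes that did not pass, Slc7a8, Aldh1a1, Drd2, Phox2a and Ttr, were chosen after their values were seen. Repeated fits changed the normalization (quantile), the pseudocount (1 or 64), the filter (none, or the 60th percentile), the variance model (plain eBayes), the arrays in the fit (all 23, control arrays 3 and 4 as the only controls, or 1 array fewer), the covariates (a replicate block, the Gapdh ratio) and the probe sets (their mean per gene). Added after the data were seen were the mean of linear signals and the choroid plexus sum or Ttr as covariate.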

Additional observations from a re-analysis of the deposited data

Results flagged for a closer look

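In 3 of 65 groups of 4 or 5 arrays tested, 1 array of a member probe set stood apart from the rest of its group by Dixon's criterion, which chance gives in about 1 group in 20. Slc18a2 at 1369131_at had 37.7 in dehydrated array 3, where the other dehydrated arrays had 50.5 to 52.9. Slc18a2 at 1369132_at had 24.0 in WKY array 2, where the other WKY arrays had 33.5 to 36.5. Th had 308.7 in SHR array 3, where the other SHR arrays had 370.7 to 393.0. Without these arrays the log2 differences were 0.03 for Slc18a2 in dehydrated minus control (adjusted p = 0.954), -0.07 for Slc18a2 in SHR minus WKY (0.789) and 0.05 for Th in SHR minus WKY (0.806), and none was called.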

How the results depend on the processing

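The single member call, Gch1 at 1387221_at in SHR minus WKY, stood in 20 of 23 alternatives, with log2 values of 0.27 to 0.65. The count of called members fell to 0 with a gene's probe sets averaged as log2 values, with the mean of their linear signals and with the choroid plexus marker sum as a covariate, the last 2 added after the data were seen. The adjusted p was 0.244, 0.0542 and 0.594 in these fits, and the causes were not tested beyond the construction of the fits. With the Gapdh ratio as a covariate the adjusted p was 0.0466. In the 3 Sprague Dawley comparisons the count of called members was 0 under every alternative run. No called difference changed its sign, but signs of members that were not called varied, for example Maoa in SHR minus WKY, -0.26 with the choroid plexus sum and 0.16 to 0.25 otherwise.

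Among pathway genes outside the members the count of 1 in SHR minus WKY, Pts, was 0 without a filter, with eBayes without trend and robust, and with the Gapdh ratio or the choroid plexus sum as a covariate. It ran from 0 to 2 with 1 array left out, and the genes varied: Slc7a8, Aldh1a1 or Tfap2b were called in place of or beside Pts in some of these fits, and Aldh1a1 alone with all 23 arrays in 1 model. The labels do not say that a replicate number is shared between groups. With group means removed, same-numbered arrays had correlations of 0 to 0.28 for SHR and WKY and -0.17 to 0.06 for Sprague Dawley. Differently numbered arrays were not correlated for comparison, so these values do not settle whether the numbers pair the arrays. With the replicate block the count was 2, Sult1a1 and Slc7a8, and Pts had adjusted p = 0.0607, while Gch1 was called (0.0243). Signals near or below the filter, those of Slc6a2, Slc6a4 and Slc18a2, limit what can be seen there.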
